A study of Rattus norvegicus with 9 samples.

Results

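The rat long noncoding RNA array used here carried 861 probes named for a BC accession, all with a probe name of the form that the array gave to its noncoding transcripts (accession followed by P1). They were found by that name rule alone, among 24684 non-control probes, of which 9319 had a noncoding name. Each BC probe was printed as 3 spots on every array and answered to its own accession. No column of the files states that a BC transcript is noncoding, so the class rests on the probe name. None of the accessions was found among the symbols, synonyms, RefSeq transcripts and Ensembl names of a gene table (0 of 861). No field of BC accessions was searched, so this does not show whether a transcript belongs to a known gene. The transcripts are called by accession. Probe sequences and genome positions of the BC transcripts were not used here.

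Kidneys came from male rats of 3 inbred strains, aged 53 days, weaned at 30 days and then fed 0.3% salt. The groups were the Dahl salt-sensitive strain (Dahl S, n = 3), the Dahl salt-resistant strain (Dahl R, n = 3) and the spontaneously hypertensive rat (SHR, n = 3), with 1 one-colour array per animal, Cy3 label and 1 μg of input RNA. No group carried a transgene or an engineered allele, and all shared the same low-salt diet. The labels name separate animals but no preparation day, so p-values measure the spread between these animals and their arrays.

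BC accessions are GenBank records of complementary DNA clones. Such clones are copies of RNAs found in the tissue they were made from, and they include messenger RNAs, incomplete transcripts and RNAs without a long reading frame. Long noncoding RNAs as a class are known for low abundance and for tissue-restricted expression. Dahl S rats become hypertensive on a high-salt diet and Dahl R rats, bred from the same stock, do not, while SHR become hypertensive without added salt.

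A level here is the log2 processed signal of a probe minus the log2 of the 75th percentile of its array, averaged over its spots. A probe counted as detected on an array when at least 0.5 of its spots were marked well above background. The local background was 88 on SHR replicate 3 and 43 to 45 on the other arrays, and the dimmest detected probe had a level of -2.99 there against -7.51 to -5.92 elsewhere. Of the spots of BC probes, 9.68% were marked as outliers on SHR replicate 3 and 1.47% to 3.76% on the others, and 46 BC probes had no usable spot on that array. Across the 732 tested BC probes, SHR replicate 3 correlated with the other arrays at r of 0.934 to 0.963, and the other 8 arrays with each other at 0.959 to 0.999, a description over probes that share a library. Results are therefore also given without SHR replicate 3. The kidney markers on the array (7 of a list of 8, among them Umod, Lrp2 and Aqp2) were detected on all 9 arrays. Summed levels are given over arrays on which every marker of the list had a usable spot. For kidney markers the sum was 9.94 to 10.06 in Dahl S (2 arrays), 9.90 to 9.93 in Dahl R (3 arrays) and 9.95 to 10.3 in SHR (2 arrays). Aqp2 was higher in SHR (mean level 6.92) than in Dahl S (6.32, adjusted p = 0.0383 by limma) and than in Dahl R (6.28, 0.0356). The other kidney markers on the array were called in no comparison. For fat markers (3 of 4 on the array, detected on all 9 arrays) it was 3.69 to 4.30 in Dahl S (3 arrays), 4.51 to 4.60 in Dahl R (2 arrays) and 4.89 to 5.45 in SHR (2 arrays), highest in SHR. Ucp1, the uncoupling protein of brown fat, was higher in SHR than in Dahl S (adjusted p = 0.0102 by limma) and than in Dahl R (0.0468). Ucp1 had no usable spot on Dahl R replicate 2 or SHR replicate 3. In these comparisons the other fat markers were not called (0.127 and 0.461 for Adipoq, 0.0812 and 0.263 for Fabp4). For leukocyte markers (4 of 4, of which 3 detected on all 9 arrays) the sum was 3.19 to 3.58, 3.38 to 3.49 and 3.04 to 3.21 (2 SHR arrays). For blood markers (4 of 4, of which 3 detected on all 9 arrays) it was 8.12 to 8.44, 7.94 to 8.05 and 7.95 to 8.16 (2 SHR arrays), a sum dominated by Hbb, a haemoglobin chain. Among the others, Hba-a3, also a haemoglobin chain, had mean levels of 2.31 in Dahl S and 1.77 in Dahl R and was detected on no SHR array (adjusted p of 0.000993 and 0.00149). Alas2, an enzyme of haem synthesis, was higher in Dahl S than in SHR (0.0257), and Slc4a1, the anion exchanger of red cells, was higher in Dahl S than in Dahl R (0.0483). Of the adrenal markers (4 of 5 on the array) 0 were detected on all 9 arrays and Cyp11b2 was detected on none, and the sums were -3.97 to -3.80, -4.32 to -3.47 and -3.74 to -1.65. The part of these cell types in the strain differences was not tested. In whole tissue, fewer cells of a type and less RNA per cell cannot be told apart.

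Most BC transcripts gave a signal in kidney. Of the 861 probes, 499 (58.0%) were detected on all 9 arrays, 161 on 8 arrays and 95 (11.0%) on none, and each number of arrays from 1 to 7 held 11 to 19 probes. The share detected on a single array was 77.7% to 87.0% on 8 arrays and 58.3% on SHR replicate 3. By animal it was 77.7%, 84.1% and 77.9% in Dahl S, 87.0%, 81.9% and 82.2% in Dahl R, and 83.3%, 86.3% and 58.3% in SHR. The strains overlapped in this share, and the low value was that of the array with the high background. No spot of a BC probe carried a saturation mark (0 of 2583 spots on each array). The median signal of 8 to 42 spots per array nevertheless equalled the highest value on that array, and 6 BC probes had such a spot on at least 1 array. None of the 6 was called between strains, and their levels are lower bounds.

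**Figure D1:**
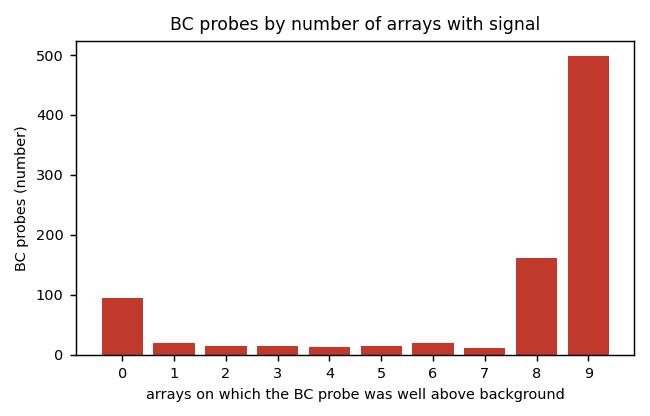
Number of BC probes (y axis) by the number of arrays, from 0 to 9, on which the probe was well above background (x axis). The bar at 9 arrays holds 499 probes, the bar at 8 arrays 161 and the bar at 0 arrays 95.

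BC probes were detected far more often than the other large noncoding classes and slightly more often than coding probes. The XR class holds RefSeq model transcripts predicted from the genome (1698 probes), and the MRAK class holds probes named with that prefix (3588 probes). On the arrays other than SHR replicate 3, 37.9% to 50.7% of XR probes, 41.8% to 55.2% of MRAK probes and 71.6% to 80.1% of the 15365 coding probes were detected. The within-array difference between BC and XR probes was 37.9 percentage points ± 1.51 (SD, n = 9 arrays), and that between BC and MRAK probes 34.6 ± 1.63. Against coding probes it was 6.02 ± 1.30 percentage points, with BC probes ahead on all 9 arrays. An exact two-sided sign-flip permutation test over the 9 arrays gave adjusted p = 0.00391 for each of these, adjusted over 6 class comparisons and the smallest p that 9 arrays allow. Every array carries the same probes, so the test speaks only to how steady the differences were over arrays. The spread between the probes of a class did not enter it.

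The same order held for the level. The median level of BC probes lay between -1.25 and -1.01 on the arrays other than SHR replicate 3 and was -1.48 there. Medians of the XR class lay between -7.14 and -6.85 and those of the MRAK class between -6.81 and -6.31 on the same 8 arrays, near the limit of detection, while SHR replicate 3 gave -4.50 and -4.45. The BC median exceeded the XR median by 5.53 ± 0.95 (SD, n = 9 arrays, log2) and the MRAK median by 5.11 ± 0.83, each on 9 of 9 arrays, with adjusted p = 0.00391 by the same exact permutation test. Many XR and MRAK probes were not detected, so these 2 differences set a measured level against one near background. The median level of coding probes was -1.38 to -1.29 on the 8 arrays. BC probes exceeded it by 0.27 ± 0.24 (log2, 9 of 9 arrays, exact permutation adjusted p = 0.00391), by 0.86 on SHR replicate 3 and by 0.19 on average without that array. Signal also depends on how well a probe binds, so a difference between class medians describes the probes and not the number of molecules. As for detection, the permutation test covered the arrays and not the spread between probes.

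**Figure D2:**
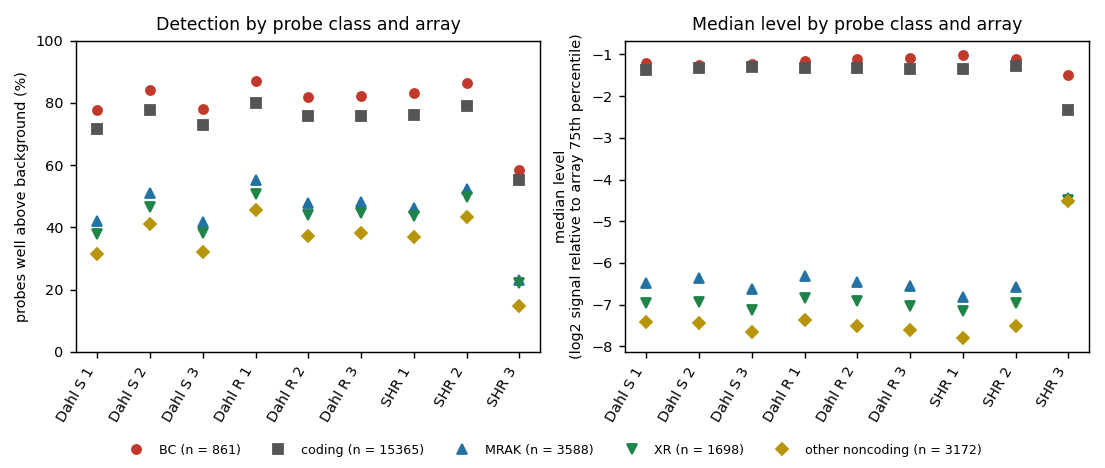
Left, the percent of probes well above background on each of the 9 arrays by probe class. Right, the median level of the class (log2 signal relative to the 75th percentile of the array). BC probes lie between 58.3% and 87.0%, above coding probes on every array, while the XR, MRAK and other noncoding classes lie below both in each panel.

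Detection and level of the BC transcripts varied with the accession number, a feature the choice of probes did not use. The bands were set after the values were seen and are given as a description. In the band from BC080000 to BC099999 (395 probes), 65.1% were detected on all 9 arrays and 8.10% on none, and the median of the probe means was -0.32. From BC150000 upward (328 probes), 52.4% were detected on all arrays and 13.7% on none, with a median of -1.99. The band from BC100000 to BC149999 (101 probes) had 53.5% and 13.9%, with a median of -1.80, and the 37 probes below BC080000 had 43.2% and 10.8%, with a median of -2.88.

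The 5 brightest BC probes were BC166798, BC166770, BC161988, BC158811 and BC166549, and they lay at the upper limit of the scan. On 7 of the 9 arrays all 15 of their spots had a median signal equal to the highest on the array. On Dahl R replicate 2 12 of the 15 did, and on SHR replicate 3 8 of the 15. Their levels, 7.82 to 8.33 on 8 arrays and 8.56 to 8.74 on SHR replicate 3, therefore follow the 75th percentile of each array, which was lowest on SHR replicate 3. They show neither a strain difference nor its absence, and no order among the 5.

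Replicate spots and animals set the error of these values. Among detected BC probes, the median SD between the 3 spots of a probe was 0.08 to 0.11 (log2) on every array. The median SD between animals over the tested probes was 0.12 in Dahl S, 0.07 in Dahl R and 0.29 in SHR, and 0.09 between SHR replicates 1 and 2 alone. The 5 tested probes with the largest spread within strains were BC166491, BC166764, BC166774, BC158594 and BC058457, with pooled within-strain SDs of 1.43, 1.37, 1.34, 1.30 and 1.29. In all 5 SHR replicate 3 was higher than the other SHR animals, though in BC166774 its spots (0.05 to 0.12) lay near theirs (-0.45 to -0.12). BC166491 had levels of -8.10, -9.09 and -4.68 in SHR, and BC166764 had -8.03, -7.73 and -3.86, none of these 6 detected. BC166774 varied most in Dahl S, with -4.04, -0.02 and -0.09. The spots of BC166774 on Dahl S replicate 1 ranged from -7.69 to 0.22, and on no other array did they span more than 0.26.

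Of the 861 BC probes, 732 were tested for strain differences, which required detection on at least 3 arrays and a usable spot in each strain, and 129 were not. Of the latter, 34 were detected on 1 or 2 arrays. A probe passed that was detected in only 1 strain, so the tested probes are not all members. Where a probe was detected on no array of a strain, it met the filter through the other strains alone. Its p-values against that strain are tied to the filter and are given as a description. The fit covered all 16592 tested probes of the array, and p-values were adjusted over all of them (limma, Benjamini-Hochberg). A difference was called at an adjusted p under 0.05. A fold is written as "at least" where a probe was detected on no array of the dimmer strain, and is then measured against the higher of its own signal and the dimmest detected signal of each array.

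Dahl S and Dahl R differed in few BC transcripts. Past the threshold were 13 of 732 tested (1.78%), against 1.40% of all tested probes. Of these, 2 were higher in Dahl S (0.273% of those tested, against 0.705% of all probes) and 11 higher in Dahl R (1.5%, against 0.699%). The fitted difference was at least 2-fold in 9 of the 11, and the like count over all probes was not made. The 9 include probes detected on no Dahl S array, for which the fold below is a lower bound. For BC128722 that bound is under 2-fold. The median difference over tested BC probes, Dahl S minus Dahl R, was 0.00 (quartiles -0.16 and 0.12), and 0.02 over all tested probes. Without SHR replicate 3, which entered this comparison only through the shared estimate of the spread and the filter, 40 of 731 BC probes passed (5.47%, against 4.59% of all), including the 13. Of the 40, 16 were higher and 24 lower in Dahl S. With the percentile and detection taken over spots without an outlier mark 1 passed, with normexp background correction 3 and with the array median as the scale 8, all of them lower in Dahl S. The shares of all tested probes that passed were then 0.229%, 0.259% and 1.02%. Of all probes called in these settings, 47.4%, 65.1% and 47.6% were higher in Dahl S. Among the 499 BC probes detected on all 9 arrays, tested alone with the like probes of the array, 11 passed (against 2.5% of all such probes) and 54.5% of them were higher in Dahl S, so the excess of lower calls did not hold there. Under normexp the median of all probes moved from 0.02 to 0.14.

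BC169049 had the largest fitted difference toward Dahl R. It measured -5.58, -5.77 and -5.82 in Dahl S, -3.17, -3.06 and -3.26 in Dahl R, and -4.94, -4.48 and -4.20 in SHR. Dahl R was high on every array without overlap with either other strain. The difference was -2.56 ± 0.18 (SE, adjusted p = 0.000697 by limma), with detection on 1 of 3 Dahl S arrays. It was -0.23 (adjusted p = 0.883) under normexp background correction.

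BC159438 was 4.52-fold lower in Dahl S. Its levels were -1.78, -1.96 and -1.88 in Dahl S, 0.42, 0.26 and 0.22 in Dahl R, and -1.74, -1.63 and -0.76 in SHR. It was detected on all 9 arrays, and only Dahl R stood high (-2.18 ± 0.24, SE, adjusted p = 0.00579 by limma). BC161882 showed a like order, with 0.04, 0.12 and 0.12 in Dahl S, 1.72, 1.79 and 1.89 in Dahl R, and 0.20, 0.19 and 0.02 in SHR. It was 3.26-fold lower in Dahl S (-1.71 ± 0.09, SE, adjusted p = 0.000149 by limma) and the 3 Dahl R values lay above all others. Both differences were also called under normexp. With the percentile and detection over spots without an outlier mark neither was (adjusted p of 0.303 for BC159438 and 0.0535 for BC161882), and within the first slide BC161882 was not (0.0676).

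In BC086436, Dahl S stood apart. This probe measured 2.1, 1.96 and 2.02 in Dahl S, 3.72, 3.61 and 3.59 in Dahl R, and 3.52 and 3.47 in SHR, with no usable spot on SHR replicate 3. It was 3.06-fold lower in Dahl S than in Dahl R (-1.61 ± 0.09, SE, adjusted p = 0.000468 by limma), and the SHR values lay just under those of Dahl R. BC081695 rose from Dahl S (-4.71, -4.75 and -4.83) through Dahl R (-3.61, -3.64 and -3.71) to SHR (-3.0, -2.96 and -2.81), with no overlap between any pair of strains. Its difference between the Dahl lines was -1.11 ± 0.09 (SE, adjusted p = 0.00119 by limma), and it turned to 0.44 under normexp.

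The remaining BC probes lower in Dahl S had smaller or less stable differences. BC082047 measured -6.71, -6.75 and -6.63 in Dahl S, detected on none of the 3, and -4.67, -4.88 and -5.17 in Dahl R, and was at least 2.6-fold lower (adjusted p = 0.0358 by limma). BC128722 was at least 1.83-fold lower (adjusted p = 0.0166). Under normexp the differences of BC082047 and BC128722 turned to 0.74 and 0.99. BC161910 was 3.01-fold, BC167085 2.18-fold and BC168221 1.66-fold lower, with adjusted p of 0.0332, 0.0414 and 0.0155. Under normexp the differences were -0.03 for BC161910, -0.39 for BC167085 and -0.80 for BC168221, with adjusted p of 0.980, 0.682 and 0.208. BC161910 and BC167085 were also not called with quantile normalization, the array median or the authors' deposited values, and BC168221 not with the array median. With quantile normalization and the authors' values, BC082047 (0.263 and 0.367) and BC128722 (0.552 and 0.638) were not called either. None of these probes was called with spots without an outlier mark (0.152 to 0.884) or without a filter (0.0591 to 0.123). BC082047 (0.0989 to 0.165) and BC128722 (0.0577 to 0.102) were not called without any single Dahl animal. BC167085 was not either (0.0596 to 0.182), BC161910 kept its call only when the Dahl animal left out was Dahl S replicate 3, and BC168221 only when it was Dahl S replicate 1. Besides these, BC086438 was 1.45-fold lower (adjusted p = 0.0331), named here after its values were seen because it completes the count.

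Higher in Dahl S than in Dahl R were BC158578 and BC088258. BC158578 measured -0.47, -0.59 and -0.63 in Dahl S, -1.29, -1.58 and -1.42 in Dahl R, and -0.82, -1.01 and -0.58 in SHR, a difference of 0.86 ± 0.13 (SE, adjusted p = 0.0249 by limma) or 1.82-fold. BC088258 was 1.53-fold higher (0.61 ± 0.11, SE, adjusted p = 0.0384 by limma). Neither was past the threshold when any single Dahl animal was left out, with adjusted p from 0.0646 to 0.136 for BC158578 and from 0.0661 to 0.199 for BC088258.

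Leaving out 1 animal changed the count for the Dahl lines by more than 1.5 times in several cases. Dropping Dahl S replicate 1, 2 or 3 left 7, 5 or 6 BC probes, and dropping Dahl R replicate 1, 2 or 3 left 6, 5 or 5. Over all tested probes the shares called were then 0.755%, 0.477% and 0.483%, and 0.642%, 0.448% and 0.521%. Slides were inferred from arrays that shared a scan time in the scanner headers. By that rule all Dahl S arrays and Dahl R replicate 1 lay on 1 slide. Dahl R replicates 2 and 3 and SHR replicates 1 and 2 lay on another, and SHR replicate 3 on the remaining one. With a block for slide, 7 BC probes passed (Dahl R had only replicate 1 on the first slide), 6 of them among the 13. Of all tested probes 0.988% passed with that block. Within the first slide 4 passed, 3 of them among the 13, and all 13 kept their direction there. Those arrays also made the calls.

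**Figure D3:**
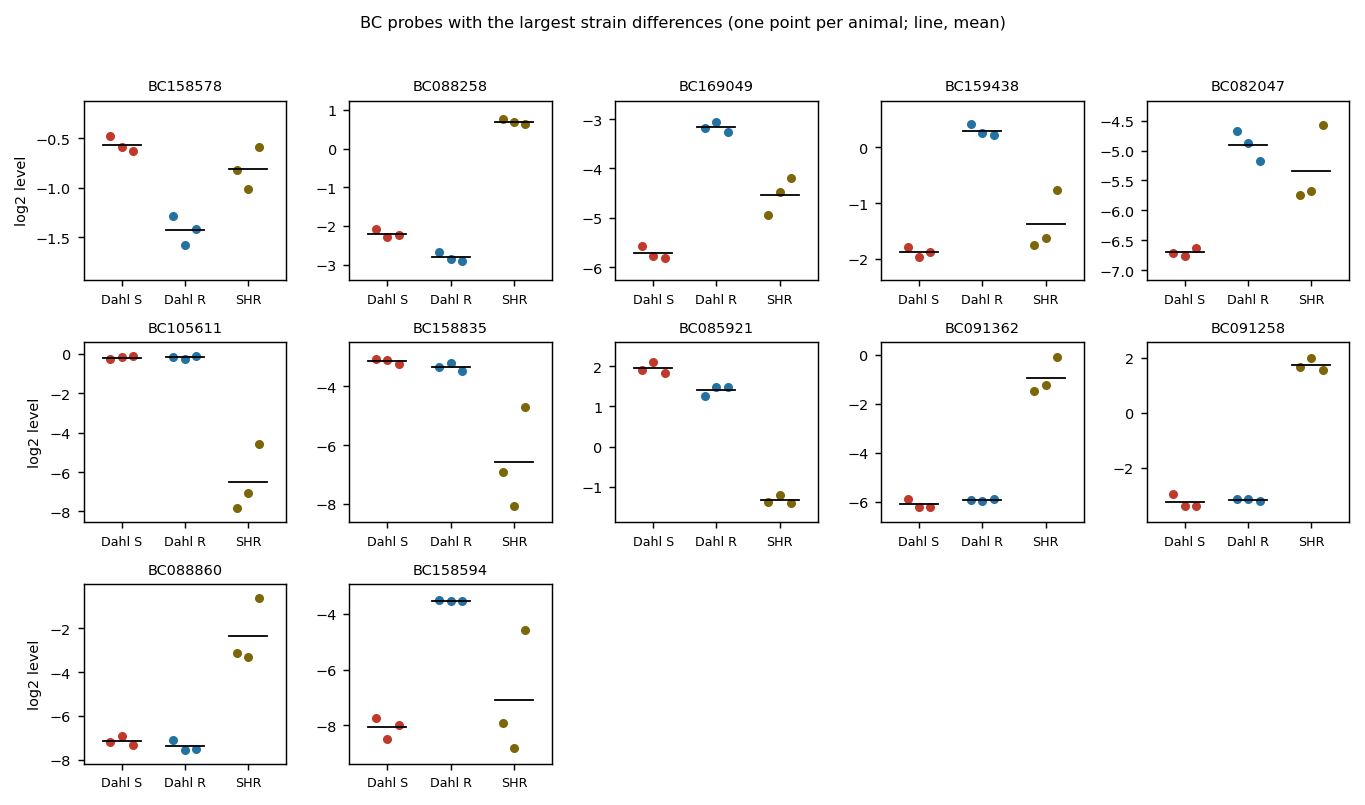
Levels (log2 signal relative to the 75th percentile of the array) of the BC probes with the largest fitted differences past the threshold, up to 3 each way in each comparison. Each point is 1 animal, in order of replicate number, and each line the strain mean. BC105611 lies at -0.26 to -0.10 in all Dahl animals and at -7.84 to -4.57 in SHR, and BC091258 at -3.41 to -2.97 in the Dahl animals and 1.55 to 1.99 in SHR.

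SHR differed from Dahl S in many more BC transcripts, mostly toward SHR. Past the threshold were 129 of 732 (17.6%), against 15.7% of all tested probes. Of the 129, 33 were higher in Dahl S (4.51% of those tested, against 7.08% of all probes) and 96 higher in SHR (13.1%, against 8.62%). The share higher in Dahl S, 25.6% of the called BC probes, was 37.2% with quantile normalization, 34.7% with the array median as the scale and 66.7% with normexp. Over all called probes that share was 45.1%, and 52.2%, 52.4% and 70.4% in these settings. Under normexp 21 passed, against 3.31% of all tested probes. The median difference over tested BC probes, Dahl S minus SHR, was -0.14 (quartiles -0.45 and 0.14), against -0.09 over all tested probes. Scaling by the array median moved the median of all probes from -0.09 to 0.01 and that of BC probes to -0.02. Fitted differences of at least 2-fold past the threshold numbered 60, of which 22 were higher in Dahl S and 38 in SHR. The like count over all probes was not made. Without SHR replicate 3, 225 of 731 passed (30.8%, against 26.2% of all), 81 higher in Dahl S and 144 in SHR, and 128 of the 129 were among them. With slide as a block, which links Dahl S and SHR only through Dahl R, 47 passed (against 5.22% of all tested probes), 41 of them among the 129. The count was 69 without Dahl S replicate 2 (against 8.05% of all) and 81 without Dahl S replicate 3 (against 9.17%).

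The largest difference of any BC transcript was that of BC105611. It measured -0.26, -0.17 and -0.12 in Dahl S and -0.14, -0.24 and -0.10 in Dahl R, and -7.84, -7.04 and -4.57 in SHR. The probe was bright in all 6 Dahl animals and detected in none of the 3 SHR. It met the filter for testing only through the Dahl arrays. Its p-values against SHR are therefore tied to the filter and are given as a description. BC105611 was at least 45.3-fold lower in SHR than in Dahl S (6.30 ± 0.71, SE, adjusted p = 0.00125 by limma). The spots of a single array spanned at most 0.70. Without SHR replicate 3 the fitted difference was 7.26 (adjusted p = 3.28e-06).

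BC158835 followed the same order at a lower level. It measured -3.05, -3.09 and -3.25 in Dahl S, -3.34, -3.21 and -3.48 in Dahl R, and -6.92, -8.06 and -4.72 in SHR, where it was not detected. BC158835 also met the filter only through the Dahl arrays, so its p-values against SHR are given as a description. The excess in Dahl S was at least 6.31-fold (3.43 ± 0.71, SE, adjusted p = 0.0171 by limma, and 0.000155 without SHR replicate 3). It was not called under normexp (0.0714), with spots without an outlier mark (0.141) or without any single Dahl S animal (0.0532 to 0.0605). BC085921 was measured on all arrays of all strains, with 1.91, 2.12 and 1.83 in Dahl S, 1.27, 1.49 and 1.48 in Dahl R, and -1.37, -1.21 and -1.40 in SHR. It was 9.74-fold higher in Dahl S than in SHR (3.28 ± 0.12, SE, adjusted p = 4.84e-06 by limma), and the SHR values lay far below both Dahl lines with little spread.

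The other BC probes with the largest differences toward Dahl S were BC058491 (7.73-fold), BC166601 (5.82-fold), BC086450 (5.23-fold), BC168653 (4.99-fold), BC126091 (4.07-fold), BC088200 (3.82-fold) and BC089091 (3.75-fold), with adjusted p from 0.000118 to 0.0114. BC166601, BC168653, BC126091 and BC088200 were detected on 2 of 3 SHR arrays and the others on all. BC058491 measured 3.13, 2.44 and 2.63 in Dahl S against -0.05, -0.37 and -0.23 in SHR. BC168653 was no longer past the threshold with quantile normalization (adjusted p = 0.0803) or with the authors' deposited values (adjusted p = 0.0815). BC126091 lost it under normexp (0.0748). BC086450 and BC126091 lost it when the percentile was taken over spots without an outlier mark (adjusted p of 0.104 and 0.0851).

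Toward SHR, BC091258 was the clearest case with signal in every animal. It measured -2.97, -3.41 and -3.39 in Dahl S, -3.14, -3.15 and -3.22 in Dahl R, and 1.67, 1.99 and 1.55 in SHR. The difference was -4.99 ± 0.16 (SE, adjusted p = 3.49e-06 by limma), or 31.8-fold, and the groups were separated by more than 4 log2 units. BC091362 measured -5.90, -6.21 and -6.22 in Dahl S, -5.91, -5.99 and -5.89 in Dahl R, and -1.50, -1.26 and -0.11 in SHR. It differed by -5.15 ± 0.33 (SE, adjusted p = 8.61e-05 by limma) and was detected on 1 of 3 Dahl S arrays, on all Dahl R arrays and on all SHR arrays.

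BC088860 was detected in SHR alone and met the filter for testing only through those arrays. Its p-values are therefore tied to the filter and are given as a description. Its levels were -7.20, -6.89 and -7.31 in Dahl S, -7.11, -7.53 and -7.50 in Dahl R, and -3.11, -3.34 and -0.66 in SHR, where replicate 3 was the highest. It was at least 15.6-fold higher in SHR than in Dahl S (-4.77 ± 0.64, SE, adjusted p = 0.00262 by limma). Without SHR replicate 3 it was detected on too few arrays to be tested. Under normexp the difference was -1.31 (adjusted p = 0.491).

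A further 4 BC probes stood high in SHR from near background in the Dahl lines or at a lower level there: BC167021 (at least 9.77-fold), BC158675 (log2 difference -4.29), BC168211 (-4.17) and BC088258 (7.39-fold). BC158675 measured -5.71, -5.95 and -6.34 in Dahl S and -1.64, -1.47 and -2.01 in SHR, and BC168211 -6.19, -6.21 and -6.84 against -2.19, -2.24 and -2.31, each detected on 1 of 3 Dahl S arrays. BC088258 measured -2.07, -2.29 and -2.23 against 0.76, 0.68 and 0.62. Lesser differences toward SHR were those of BC088254 (5.79-fold), BC158825 (4.66-fold) and BC081695 (3.58-fold, detected on 2 of 3 SHR arrays). BC088254 varied within SHR (-0.74, -3.46 and -1.41) and was at adjusted p = 0.0279, 0.415 with slide as a block, 0.456 under normexp and 0.0715 to 0.0854 without any single Dahl S animal. Adjusted p of the others lay between 4.84e-06 and 6.80e-05. Under normexp the adjusted p was 0.714 for BC081695, 0.121 for BC091362, 0.181 for BC158675, 0.577 for BC167021 and 0.355 for BC168211, all with the same direction.

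**Figure D4:**
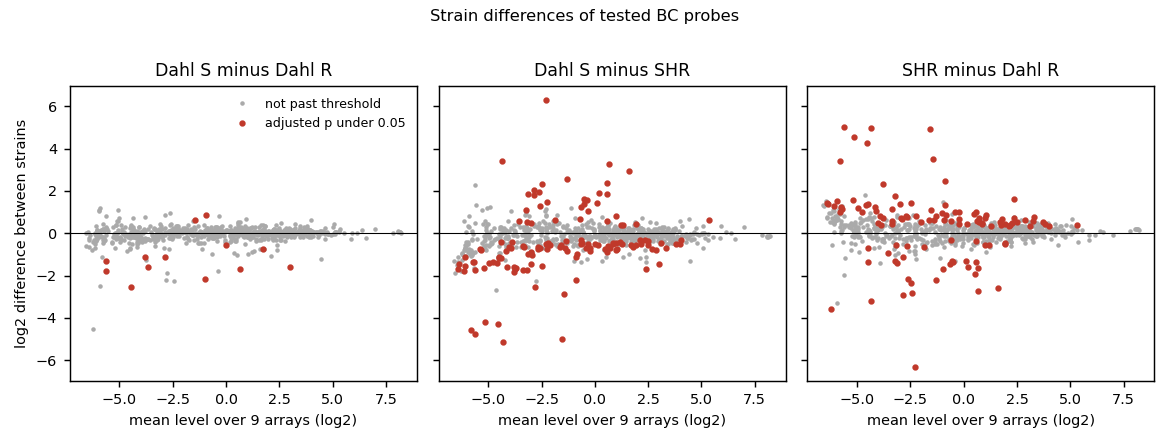
Fitted log2 difference between strains (y axis) against the mean level over the 9 arrays (x axis) for the 732 tested BC probes, 1 panel per comparison. Red points passed an adjusted p of 0.05, 13 for Dahl S minus Dahl R, 129 for Dahl S minus SHR and 115 for SHR minus Dahl R, and grey points did not.

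SHR also differed from Dahl R in many BC transcripts, again mostly upward in SHR. The SHR arrays are those of the comparison with Dahl S, so the 2 comparisons share their samples and are set side by side without counting agreement. Past the threshold were 115 of 732 (15.7%), against 13.0% of all tested probes. Of these, 81 were higher in SHR (11.1% of those tested, against 7.56% of all probes) and 34 higher in Dahl R (4.64%, against 5.49%). The median difference over tested BC probes, SHR minus Dahl R, was 0.14 (quartiles -0.13 and 0.39), against 0.11 over all probes. The share higher in SHR, 70.4% of the called BC probes, was 43.5% with normexp, under which 23 passed. It was 60% with the percentile over spots without an outlier mark, under which 30 passed. Over all called probes the share higher in SHR was 57.9%, and 41.1% with normexp and 54% over spots without an outlier mark. Of all tested probes 2.51% and 2.88% passed in these settings. Fitted differences of at least 2-fold numbered 55, with 32 higher and 23 lower in SHR, and the like count over all probes was not made. Without SHR replicate 3, 194 of 731 passed (26.5%, against 22.7% of all), 131 higher and 63 lower in SHR, and 112 of the 115 were among them. Dropping Dahl R replicate 1, 2 or 3 left 55, 53 or 59, against 6.57%, 5.85% and 7.01% of all tested probes.

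This was the comparison with both strains on 1 slide. Within that slide (Dahl R replicates 2 and 3 against SHR replicates 1 and 2), 108 BC probes passed, against 12.5% of all tested probes. Of the 108, 81 were among the 115, and all 115 kept their direction. With slide as a block 136 passed (against 16% of all), 95 of them among the 115. The arrays within the slide also made the calls.

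The BC probes with the largest differences toward SHR were largely those already given against Dahl S, with values for the other Dahl line. BC088860 was at least 24.2-fold higher in SHR than in Dahl R (5.01 ± 0.64, SE, adjusted p = 0.00244 by limma), BC091362 31.5-fold (4.98 ± 0.33, adjusted p = 0.000105) and BC091258 29.9-fold (4.90 ± 0.16, adjusted p = 3.30e-06). BC158675 was 18.9-fold, BC088258 11.3-fold and BC158825 5.48-fold higher, each detected on all SHR and all Dahl R arrays. BC168211 (log2 difference 4.54) and BC167021 (3.41) were detected on 2 SHR arrays and on 1 of 3 Dahl R arrays. Under normexp the calls of BC088860 (2.80, adjusted p = 0.189), BC168211 (0.0682), BC167021 (0.208), BC099085 (0.114) and BC092207 (0.132) were lost, with the direction kept. The list ends with BC099085 (5.08-fold) and BC092207 (3.41-fold). BC099085 measured -4.60, -4.67 and -5.24 in Dahl R, -3.76, -4.41 and -4.05 in Dahl S, and -2.91, -2.48 and -2.10 in SHR, so that SHR lay above both Dahl lines on every array.

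Toward Dahl R, BC105611 was at least 46.0-fold and BC158835 at least 5.45-fold higher (adjusted p of 0.00144 and 0.0254 by limma). As in the comparison with Dahl S, the p-values of both probes are tied to the filter. BC158835 was not called under normexp (-1.39, adjusted p = 0.284), with spots without an outlier mark (0.195), without a filter (0.0611), with the replicate block (0.0543) without any single Dahl R animal (0.0748 to 0.0916) or without SHR replicate 1 (0.0621). BC158594 measured -3.52, -3.55 and -3.54 in Dahl R against -7.92, -8.80 and -4.58 in SHR and -7.75, -8.47 and -7.98 in Dahl S. Only Dahl R gave a detected signal, on all 3 arrays with an SD of 0.02, so the probe met the filter through that strain alone. Its p-values are therefore tied to the filter and are given as a description. BC158594 was at least 4.87-fold higher in Dahl R than in SHR (-3.56 ± 0.94, SE, adjusted p = 0.0464 by limma, and 0.000101 without SHR replicate 3). BC158594 was not called under normexp (-1.16, adjusted p = 0.709), with spots without an outlier mark (0.245), without a filter (0.104), with the replicate block (0.0673) without any single Dahl S animal (0.0701 to 0.0789) or without SHR replicate 1 (0.101) or 2 (0.0909). BC167085 measured -1.71, -1.52 and -1.31 in Dahl R, -2.36, -2.89 and -2.66 in Dahl S, and -4.77, -4.37 and -4.21 in SHR, with each strain apart from the others, and was 7.66-fold higher in Dahl R than in SHR. BC088202 measured -0.81, -0.74 and -0.70 in Dahl R, -4.22, -2.37 and -2.40 in Dahl S, and -3.30, -3.60 and -3.78 in SHR, and was 6.99-fold higher in Dahl R than in SHR. BC167085 and BC088202 were each detected on 2 of 3 SHR arrays. Also higher in Dahl R were BC085921 (6.69-fold), BC058491 (5.90-fold), BC168653 (5.03-fold), BC166601 (4.64-fold) and BC088200 (4.40-fold), with adjusted p from 1.09e-05 to 0.0225. Under normexp BC167085 (0.103), BC088202 (0.0663) and BC088200 (0.0772) were not called, and with quantile normalization BC168653 (0.0909) and BC166601 (0.0508) were not. BC166601 was also not called without any single Dahl R animal (0.0688 to 0.0796).

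Of the 861 BC probes, 10 were detected on all arrays of 1 strain and on none of another. BC105611, BC158835, BC058457 and BC100663 were detected on all Dahl S and all Dahl R arrays and on no SHR array. BC158594 was detected on all Dahl R arrays alone, and BC166491 on all Dahl R arrays and 1 Dahl S array. BC088860 was detected on all SHR arrays alone. BC128722 and BC082047 were detected on all Dahl R arrays, on 2 SHR arrays and on no Dahl S array, and BC091252 on all Dahl R arrays, on 1 SHR array and on no Dahl S array. With SHR judged on replicates 1 and 2, the set grew to 20, which included the 10. Like counts were not made over all probes, so neither number can be set against the rest of the array.

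Several of the 10 did not pass the threshold in a comparison where their detection differed. BC158594 was at least 7.46-fold lower in Dahl S than in Dahl R by its signals, with a fitted difference of -4.53 ± 0.94 (SE, adjusted p = 0.0761 by limma), and adjusted p = 0.000246 without SHR replicate 3.

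BC058457 measured -4.80, -4.84 and -4.71 in Dahl S, -4.72, -5.18 and -5.30 in Dahl R, and -8.12, -8.54 and -4.53 in SHR. The difference between Dahl S and SHR was 2.28 ± 0.93 (SE, adjusted p = 0.141 by limma), and 3.55 (adjusted p = 6.50e-05) without SHR replicate 3. BC100663 had adjusted p = 0.200 in the same comparison, and 0.00111 without that array. BC166491 differed by -3.29 ± 1.03 (SE) between SHR and Dahl R (adjusted p = 0.0791), and by -4.59 (adjusted p = 0.0013) without it. In each of these 3 probes the level on SHR replicate 3 was between -4.71 and -4.53, not detected, where the dimmest detected probe of that array had -2.99. No SHR array detected the 3 probes, so they met the filter only through the Dahl arrays. Their p-values against SHR are given as a description.

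Tested BC probes were split at the median of their mean levels over all 9 arrays (-0.27, 366 probes on each side), a split made after the values were seen. On the dimmer side, the median difference SHR minus Dahl R was 0.20, and 0.08 without SHR replicate 3, with 49 called higher and 22 lower. On the brighter side it was 0.09, and 0.07 without that array, with 32 called higher and 12 lower. The corresponding medians for Dahl S minus SHR were -0.24 and -0.08, and without SHR replicate 3 -0.16 and -0.06. The part of the high background of that array in these values was not tested. A like split of all tested probes was not made. The medians and counts on each side therefore cannot be set against the rest of the probes.

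Read against the other classes, BC probes were called at 1.78%, 17.6% and 15.7% in the order Dahl S minus Dahl R, Dahl S minus SHR and SHR minus Dahl R. Coding probes were called at 1.61%, 15.8% and 13.5%, MRAK probes at 0.656%, 16.9% and 12.1%, and XR probes at 8, 84 and 62 of 802. The classes differed in level and detection, and these shares were not tested against each other. By accession band, the calls for Dahl S minus SHR were 61 of 345 tested in the band from BC080000 to BC099999 and 48 of 271 from BC150000 upward, and for SHR minus Dahl R 55 and 43.

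**Figure D5:**
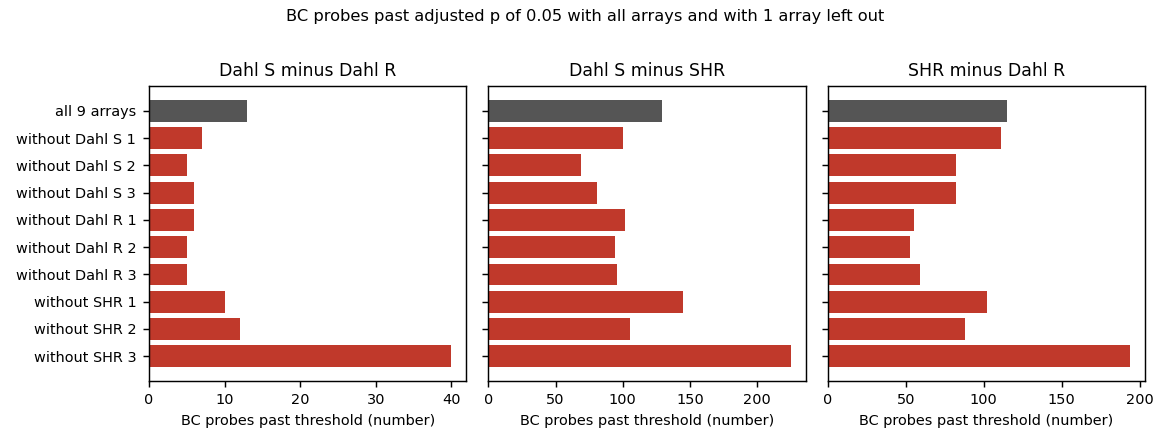
Number of BC probes past an adjusted p of 0.05 (x axis) in each comparison with all 9 arrays (grey) and with 1 array left out (red). The count was highest without SHR replicate 3, at 40, 225 and 194, and lowest at 5, 69 and 53.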

How the data were processed

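Kidney RNA of 9 rats was hybridised to one-colour Agilent arrays. Per the file headers, the authors deposited scanner output of Agilent Feature Extraction (10.5.1.1 per the submitters' processing notes), with a processed intensity per spot, background-subtracted and detrended within the array, and 0 or 1 marks per spot. The authors also deposited a table of log2 values for 19407 probes, normalized between arrays by a method not given in the sources used here. It held 811 of the 861 BC probes and served as an alternative.

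Outlier spots were left out, the log2 processed intensity was set against the 75th percentile of its array, and spots of a probe were averaged. Testing required a usable spot in each strain and detection (0.5 or more of the spots marked well above background) on 3 or more arrays. One limma model (3.58.1, R 4.3.3) over the 3 strains covered all tested probes, with Benjamini-Hochberg adjustment and a threshold of 0.05. The code was tested on simulated data. Normexp used median spot signals (offset 50).

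Named BC probes were, per comparison, up to 10 each way with the largest fitted difference past the threshold (the first 3 each way by array), those detected on all arrays of 1 strain and none of another, the 5 brightest, and the 5 most variable within strains. The probes and lists were chosen with earlier results of these data known. The number of arrays limits the precision. Alternatives were the background correction, the scale, the filter, outlier spots, slide and replicate number as blocks, and leaving out each animal.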

Additional observations from a re-analysis of the deposited data

How the results depend on the processing

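Of 974 values of the 52 named differences under alternatives, 809 kept direction and threshold, 162 kept direction only and 3 reversed. The reversed values were those of BC082047 (0.74), BC128722 (0.99) and BC081695 (0.44) between Dahl S and Dahl R with normexp. Counts and shares follow in the order Dahl S minus Dahl R, Dahl S minus SHR and SHR minus Dahl R. With normexp, the 13, 129 and 115 BC probes became 3, 21 and 23. With the percentile and detection over spots without an outlier mark the counts were 1, 37 and 30, and without a filter on dim probes 5, 82 and 64. Shares over all tested probes fell too, from 1.40%, 15.7% and 13.0%. They were 0.259%, 3.31% and 2.51% with normexp, 0.229%, 3.62% and 2.88% over spots without an outlier mark, and 0.377%, 6.05% and 4.82% without the filter. The first count was 8 with the array median, 7 with slide as a block and 4 within slide 1, and the second was 47 with slide as a block. Leaving out 1 animal gave 5 to 40, 69 to 225 and 53 to 194, with the highest counts without SHR replicate 3. The cause was not tested. The 6 class comparisons kept direction and threshold under every alternative run for them, all of which kept the same probe classes. The high background of SHR replicate 3 limits what can be measured in dim probes.

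Deviations of animals with the same replicate number correlated at -0.16 to 0.06 over 9 pairs. With 3 animals per strain these values cannot exclude a pairing by number, so replicate number was also fitted as a block. With the replicate block the counts were 5, 94 and 72, against 0.452%, 11.5% and 8.58% of all tested probes.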
